A study of Mus musculus with 16 samples.

Results

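The 10 genes described here are markers of neutrophils and inflammatory signals, read in 16 mouse liver libraries. They were picked by gene symbol: Cxcl1, Cxcl2, Ccl2, Il1b, Tnf, S100a8, S100a9, Csf3r, Ngp and Retnlg, 10 of the 55401 genes in the deposited table. The mice carried a vector named in the labels as negative control or as AKR1B10 knockdown, and were given BBR or not, which makes 4 groups of 4 libraries: negative control, negative control with BBR, AKR1B10 knockdown, and AKR1B10 knockdown with BBR. The series title names berberine, an alkaloid from plants, and BBR was taken to mean it; the library names of all 4 groups begin with AAV. The titles number the mice 1 to 4 within each group. The promoter of the vector, its target sequence, the doses, the diet and the strain, sex and age of the mice are not given in the sources used here.

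Neutrophils are short-lived white blood cells that leave the blood for inflamed tissue. In the mouse, the chemokines Cxcl1 and Cxcl2 draw them in through the receptor Cxcr2, Ccl2 draws in monocytes through Ccr2, and the cytokines Il1b and Tnf switch on chemokine and adhesion genes through the transcription factor NF-kB. In the liver these signals come from Kupffer cells, the resident macrophages, and partly from endothelial cells and hepatocytes, while S100a8, S100a9, Csf3r, Ngp and Retnlg are made mainly by the neutrophils themselves or their marrow precursors.

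The members sit in a few places in the genome (mm10, as in the deposited table), and 2 pairs are neighbours. Cxcl1 (ENSMUSG00000029380; chromosome 5, 90891241 to 90893115, plus strand) and Cxcl2 (ENSMUSG00000058427; chromosome 5, 90903871 to 90905938, plus strand) are separated by 10755 bases. S100a8 (ENSMUSG00000056054; chromosome 3, 90668978 to 90670035, plus strand) and S100a9 (ENSMUSG00000056071; chromosome 3, 90692632 to 90695721, minus strand) are separated by 22596 bases. Promoters of 9 members were found in RefSeq (GRCm38.p6). Stretches upstream of 3 of them are shown, because the chemokine neighbours share a motif and S100a9 had the highest level in any library among the members. Capitals mark an NF-kB-like motif (GGGA and TTCC parted by any 2 bases), which matches on both strands and overlaps itself, in the chemokines, and a C/EBP-like motif (TTGCNNAA) in S100a9.
Cxcl1, chr5:90891145-90891240, plus strand: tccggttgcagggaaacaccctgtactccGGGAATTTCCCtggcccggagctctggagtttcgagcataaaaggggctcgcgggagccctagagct
Cxcl2, chr5:90903799-90903870, plus strand: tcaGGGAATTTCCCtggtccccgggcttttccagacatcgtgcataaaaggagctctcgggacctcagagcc
S100a9, chr3:90695872-90695971, minus strand: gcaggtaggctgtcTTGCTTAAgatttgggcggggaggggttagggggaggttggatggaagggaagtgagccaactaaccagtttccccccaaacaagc
In the 250 bases before each RefSeq start, searched on both strands, the NF-kB-like motif was found in Cxcl1, Cxcl2 and Csf3r, and in 397 of all 32851 promoters (1.21%). The C/EBP-like motif was found in S100a9, Ngp and Retnlg, and in 3142 promoters (9.56%). The TATA motif, TATAAA, was found in Il1b, Tnf and S100a8, and in 4063 promoters (12.4%). These matches describe the letters only.

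The libraries held 46273129 to 66235443 counts, and mitochondrially encoded genes took 35.4% of them in knockdown-labelled library 4 against 10.98% to 15.9% in the other 15. The sum of 6 hepatocyte genes, albumin among them, lay between 20208 FPKM in that library and 39492 FPKM, so defining transcripts of liver were present in all 16. Akr1b10, the gene in the label, was not lower under it: 0.351 to 0.859 FPKM in the 4 knockdown-labelled libraries against 0.177 to 0.505 FPKM in the negative controls, and 0.389 to 0.527 against 0.194 to 0.565 FPKM with berberine. The label is therefore used here as a name only. All 10 members were among the 17376 genes tested, those with a mean count of at least 10 over the 16 libraries, but they were low: 5 of the 10 reached 1 FPKM in at least 4 libraries. Retnlg passed this filter only through knockdown-labelled library 3, which held 362 of its 410 counts. Its p-values below, and its place in counts of members, are therefore a description only. Low counts pile up on 4, so 1 fragment may have been entered as 4 counts, and a count of 0 is taken here to allow up to 3 such fragments, or 12 counts. This limit is 0.0827 to 0.377 FPKM for the members and libraries concerned, and it covers counting error only.

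S100a8 and S100a9, the subunits of calprotectin, a calcium-binding protein that fills the neutrophil cytosol, were concentrated in 1 library. S100a9 stood at 0.195, 0.345, 0.220 and 1.17 FPKM in negative-control libraries 1 to 4 and at 2.26, 0.471, 155 and 0.900 FPKM in knockdown-labelled libraries 1 to 4. With berberine it stood at 0.879, 12.0, 0.738 and 1.39 FPKM in the negative controls and at 3.01, 1.32, 3.91 and 0.790 FPKM in the knockdown-labelled libraries. Knockdown-labelled library 3 is thus alone at the top, berberine control library 2 is a distant second, and the ranges of the groups overlap. S100a8 repeated this order at the top, with 112 FPKM in knockdown-labelled library 3 and 6.61 FPKM in berberine control library 2, a 17.0-fold gap. Its other values were 0.172, 0.654, 0.0828 and 0.372 FPKM in the negative controls, and 0.773, 0 and 1.68 FPKM in knockdown-labelled libraries 1, 2 and 4. With berberine the remaining negative controls held 0.372, 0.651 and 0.906 FPKM and the knockdown-labelled libraries held 1.47, 0, 2.38 and 0 FPKM. A tissue with fewer neutrophils and one whose neutrophils hold less of each transcript cannot be told apart in bulk RNA.

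Ngp, a protein of the secondary granules that are filled while neutrophils mature in the marrow, was found at 17.1 FPKM in knockdown-labelled library 3. It was at 0 in 7 libraries, namely 2 negative controls, 2 berberine controls, 1 knockdown-labelled library and 2 knockdown-labelled libraries with berberine, and its next value was 1.29 FPKM in berberine control library 2. The other 7 libraries with counts held 0.0237 to 0.499 FPKM. Retnlg, a secreted resistin-like protein expressed in mouse neutrophils, was at 0 in 11 of the 16 libraries. It reached 9.98 FPKM in knockdown-labelled library 3, followed by 0.560 FPKM in knockdown-labelled library 1, 0.308 and 0.0958 FPKM in berberine control libraries 2 and 1, and 0.229 FPKM in negative-control library 1. All 4 knockdown-labelled libraries with berberine were at 0. One library therefore held 86.0% of the Ngp and 89.3% of the Retnlg summed over the 16 libraries, and likewise 87.4% of the S100a8 and 84.0% of the S100a9.

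Csf3r, the receptor through which granulocyte colony-stimulating factor drives neutrophil production, was spread more evenly. The negative controls held 0.196, 0.595, 0.276 and 0.596 FPKM and the knockdown-labelled libraries 1.01, 0.457, 2.80 and 1.66 FPKM. With berberine the negative controls held 0.454, 0.790, 0.721 and 0.802 FPKM and the knockdown-labelled libraries 1.20, 0.672, 1.50 and 0.817 FPKM. Of the knockdown-labelled libraries, 3 lay above every negative control and library 2 lay within their range. Knockdown-labelled library 3 was again highest, but by 1.69-fold over library 4 of the same group.

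**Figure D1:**
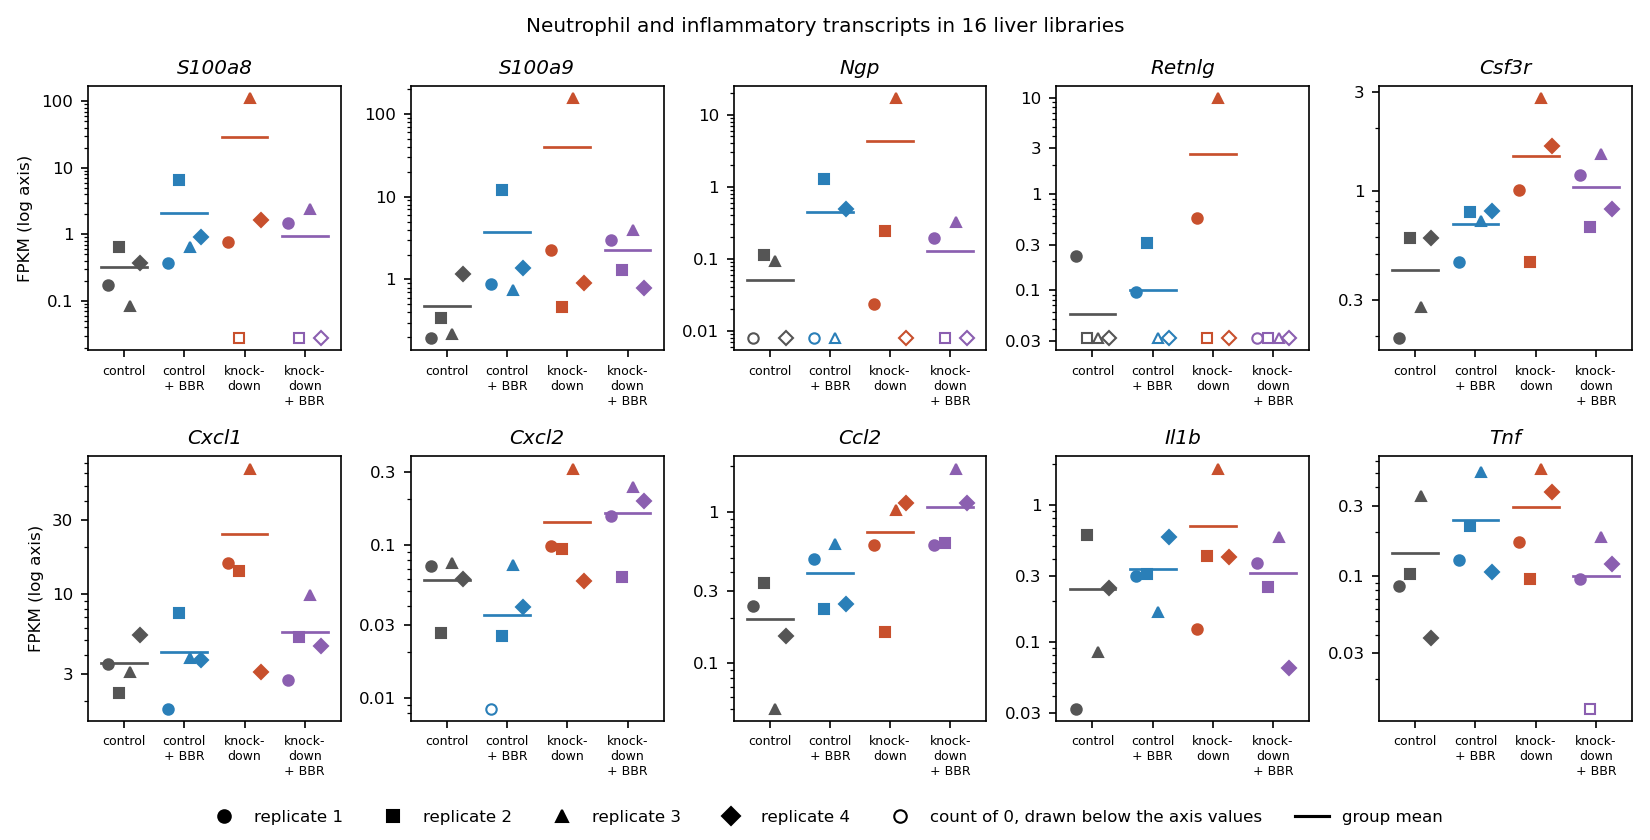
FPKM of the 10 members in each of the 16 libraries, on a log axis, by group (knockdown stands for the AKR1B10 knockdown label). Filled symbols are single libraries, with the shape giving the replicate number, open symbols are counts of 0 drawn below the axis values, and lines are group means of 4. S100a8, S100a9, Ngp and Retnlg stand far above all other libraries in knockdown-labelled library 3 (upward triangle), at 112, 155, 17.1 and 9.98 FPKM, while Ccl2 and Cxcl2 are spread over several libraries.

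Cxcl1, the chemokine best known for calling neutrophils to the liver, was the most abundant member in most libraries and differed in pattern from the calprotectin genes. It stood at 3.51, 2.28, 3.10 and 5.42 FPKM in the negative controls and at 15.7, 13.9, 64.5 and 3.12 FPKM in the knockdown-labelled libraries. With berberine it stood at 1.80, 7.47, 3.82 and 3.73 FPKM in the negative controls and at 2.77, 5.25, 9.85 and 4.61 FPKM in the knockdown-labelled libraries. Here 3 knockdown-labelled libraries, not 1, lay above all negative controls with or without berberine, and library 4 lay within the control range. The group means were 3.58 ± 1.33 FPKM (SD, n = 4) in the negative controls, 24.3 ± 27.4 FPKM in the knockdown-labelled libraries, 4.20 ± 2.37 FPKM in the berberine controls and 5.62 ± 3.01 FPKM in the knockdown-labelled libraries with berberine. Knockdown-labelled libraries 1 and 2, with 15.7 and 13.9 FPKM of Cxcl1, held only 2.26 and 0.471 FPKM of S100a9, while berberine control library 2 held 7.47 FPKM of Cxcl1 with 12.0 FPKM of S100a9.

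**Figure D2:**
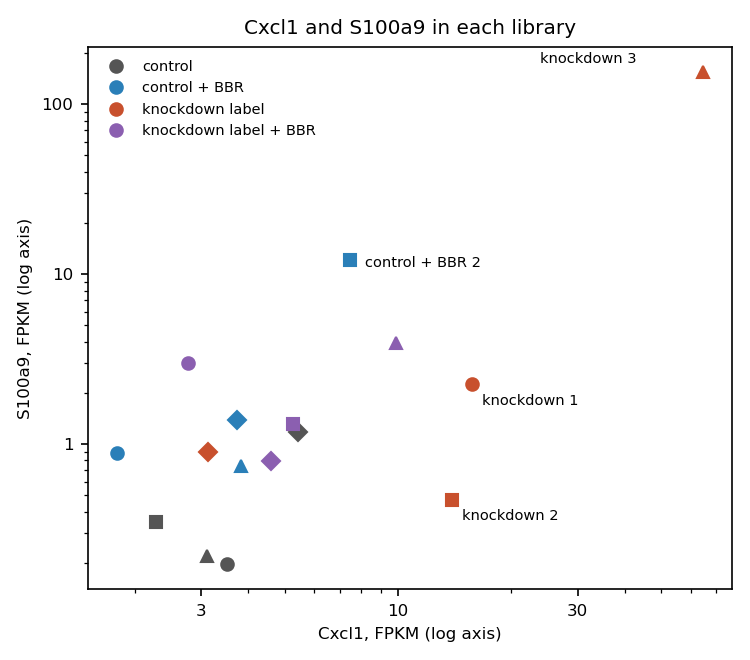
Cxcl1 (x axis) against S100a9 (y axis) in each of the 16 libraries, FPKM on log axes, with colour for the group and shape for the replicate number. Knockdown-labelled library 3 is highest in both, at 64.5 and 155 FPKM, whereas knockdown-labelled libraries 1 and 2 are high in Cxcl1 without matching S100a9.

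Cxcl2, the second Cxcr2 ligand of the set, was close to the detection limit, with 0 to 41 counts per library. Its highest value was 0.317 FPKM, in knockdown-labelled library 3, and its group means were 0.0593 ± 0.0230 FPKM (SD, n = 4) in the negative controls, 0.142 ± 0.118 in the knockdown-labelled libraries, 0.0348 ± 0.0309 in the berberine controls and 0.163 ± 0.0764 in the knockdown-labelled libraries with berberine. Of all windows of 150 bases in its transcripts, 0.339% also occur in Cxcl3, and 0% of those of the other 9 members occur in another gene, so reads shared with paralogs are a small matter here.

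Ccl2, the monocyte attractant, was the 1 member whose highest library was not knockdown-labelled library 3. The negative controls held 0.240, 0.341, 0.0502 and 0.152 FPKM and the knockdown-labelled libraries 0.603, 0.161, 1.03 and 1.15 FPKM. With berberine the negative controls held 0.491, 0.229, 0.613 and 0.246 FPKM and the knockdown-labelled libraries 0.607, 0.619, 1.94 and 1.15 FPKM. The lowest knockdown-labelled library with berberine lay just under the highest berberine control. Ccl2 rests on 4 to 132 counts per library. It overlaps the antisense gene Gm17268, as Il1b overlaps Il1bos, and the use of strand in counting is not given in the sources used here, so both levels are uncertain to that extent.

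Il1b and Tnf, the cytokines at the head of the NF-kB response, were low everywhere. Il1b lay between 0.0325 and 0.604 FPKM in 15 libraries and at 1.84 FPKM in knockdown-labelled library 3, on 215 counts. Tnf peaked in the same library at 0.535 FPKM, followed closely by 0.507 FPKM in berberine control library 3. Their group means overlapped within 1 SD, at 0.242 ± 0.258 FPKM of Il1b for the negative controls and 0.702 ± 0.772 FPKM for the knockdown label (SD, n = 4 each). For Tnf the corresponding means were 0.144 ± 0.140 and 0.292 ± 0.199 FPKM.

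Ordered by mean level per length over the 16 libraries, the members ran from S100a9 (11.6 FPKM), Cxcl1 (9.43) and S100a8 (8.02) down through Ngp (1.24), Csf3r (0.909), Retnlg (0.698), Ccl2 (0.601), Il1b (0.400) and Tnf (0.194) to Cxcl2, the lowest. By the median library the order was different, with Cxcl1 first at 4.21 FPKM and S100a9 second at 1.04 FPKM, and with Ngp and Retnlg last at 0.0588 and 0 FPKM. The means of the 4 neutrophil transcripts are set by 1 library. Knockdown-labelled library 3 was the highest of the 16 in 9 of the 10 members, where 11.2% of all tested genes had their maximum in it.

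Without berberine, all 10 members were higher in the knockdown-labelled group than in the negative controls, but none passed the test. After Benjamini-Hochberg adjustment over all genes of edgeR's quasi-likelihood p-values, 0 of the 10 members and 0.0% of the 17376 genes were called, with adjusted p-values of the members from 0.324 to 0.669. At an unadjusted p under 0.05 there were 7 members, all higher, where 7.33% of all genes were higher at that level. The members' median log2 fold change was 2.38, against 0.06 over all tested genes, and it was 1.44 without knockdown-labelled library 3. In that fit 3 members, Cxcl1, Ccl2 and Csf3r, had an unadjusted p under 0.05, where 9.31% of all genes did in either direction. DESeq2 called 99 genes (0.573%) in this comparison, and gave no p-value for S100a8, S100a9 and Ngp in this or any of the other 4 comparisons.

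The calprotectin and granule genes had the largest estimates and the widest errors in this comparison. The log2 fold change of S100a9 was 6.34 (SE 1.76), and 1.41 (SE 1.00) without knockdown-labelled library 3. S100a8 gave 6.44 (SE 2.09), or 1.49 without that library, and Ngp 6.30 (SE 2.30), or 0.86. Retnlg gave 5.33 (SE 2.20), or 1.65, on counts in 1 negative control and 2 knockdown-labelled libraries. Without that 1 control, library 1, the other controls were at 0 and the fitted value of Retnlg rose to 9.58, which is no bound. Leaving out knockdown-labelled library 3 took away most of each of these estimates and left the sign.

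Cxcl1, Csf3r and Ccl2 kept more of their estimates without that library. Cxcl1 had a log2 fold change of 2.78 (SE 0.70), which was 1.68 (SE 0.56) without knockdown-labelled library 3 and 3.12 without library 4. Csf3r had 1.91 (SE 0.49), and 1.47 (SE 0.47) without library 3. Ccl2 had 1.98 (SE 0.65), 1.83 (SE 0.70) without library 3 and 1.60 without library 4. Once library 3 was out, library 4 had the highest Csf3r and Ccl2 of the group (1.66 and 1.15 FPKM), and 35.4% of its counts were mitochondrial. Their adjusted p-values by edgeR's quasi-likelihood test were 0.324, 0.324 and 0.331, so these differences failed the correction. DESeq2 called Cxcl1 and Csf3r (adjusted p 0.00625 and 0.0243), and edgeR called Csf3r and 1.34% of all genes once knockdown-labelled library 2 was left out (adjusted p 0.0323), while over all alternatives the adjusted p of each ran up to 1. Il1b, Cxcl2 and Tnf had log2 fold changes of 1.60 (SE 0.86), 1.21 (SE 0.81) and 1.02 (SE 0.93), and 0.58, 0.55 and 0.62 without library 3. Il1b was at 2.52 without negative-control library 2 and Tnf at 1.95 without negative-control library 3.

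**Figure D3:**
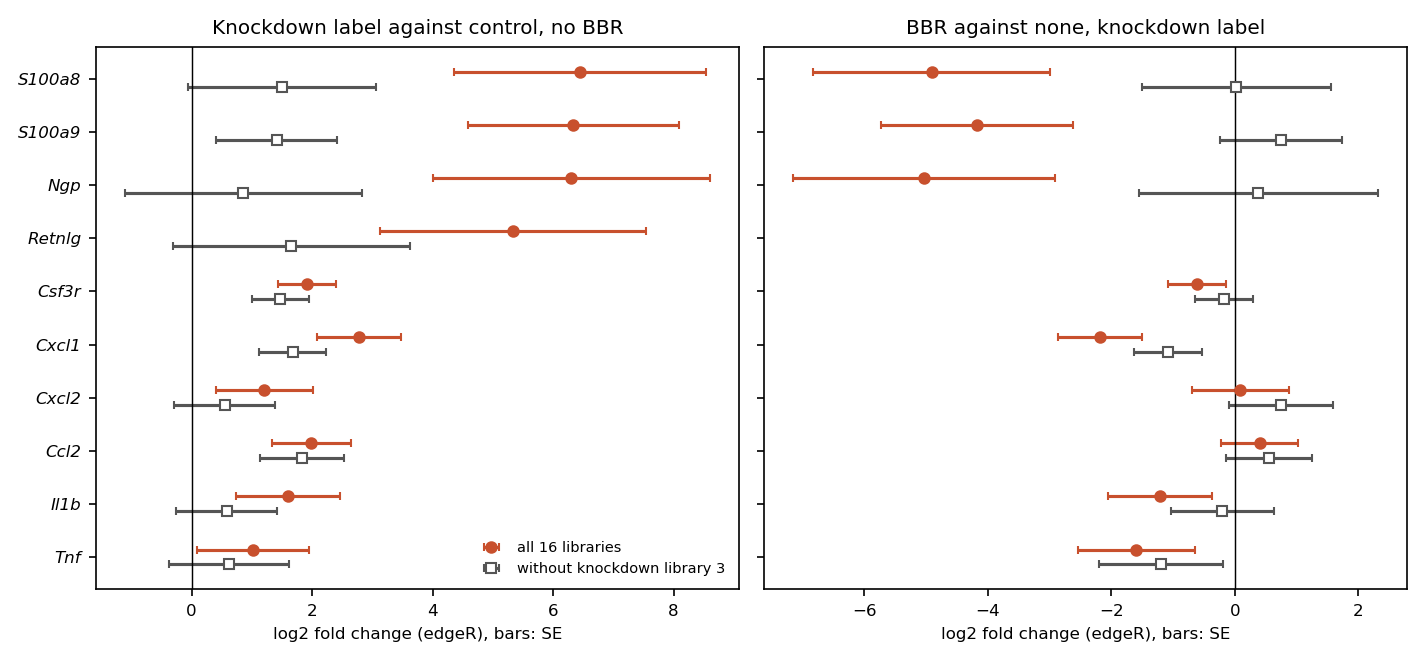
Log2 fold changes of the 10 members by edgeR with 1 standard error to each side, for the knockdown label without berberine (left) and berberine within the label (right), with all 16 libraries and without knockdown-labelled library 3. Without that library, S100a8, S100a9 and Ngp move from 6.44, 6.34 and 6.30 to 1.49, 1.41 and 0.86 on the left, and from -4.91, -4.17 and -5.03 to 0.02, 0.75 and 0.38 on the right. Retnlg is not drawn on the right, where 1 group is at 0.

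Among the negative controls, berberine-treated libraries were higher than untreated ones in 9 of the 10 members, none past the test. The median log2 fold change was 0.80, against 0.02 over all tested genes, and 0 of 10 members and 0.0% of genes were called by edgeR. At an unadjusted p under 0.05 there were 0 members, where 3.94% of all genes were, and DESeq2 called 3 genes (0.0174%). S100a9 had the smallest unadjusted p of the members with a log2 fold change of 3.04 (SE 1.56), which was 1.03 without berberine control library 2. S100a8 gave 2.80 (SE 1.84) and 0.98 without that library, and Ngp 3.11 (SE 2.12) and 1.57. Cxcl1 was at 0.27 (SE 0.66) and changed sign to -0.22 without it, as did Retnlg from 0.83 (SE 2.08) to -0.82. Ccl2 was at 1.02 (SE 0.64), Csf3r at 0.78 (SE 0.47), Tnf at 0.70 (SE 0.92) and Il1b at 0.55 (SE 0.85). All of these, like S100a8, S100a9 and Ngp, had every estimate above 0 when single libraries were left out. Tnf and Il1b fell to 0.07 and 0.19 at the lowest. Cxcl2 was the 1 member that was lower, at -0.75 (SE 0.83), but no library of either group held more than 12 counts of it, the limit used here.

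Within the knockdown label, 8 of the 10 members were lower with berberine than without it. By edgeR, 0 of 10 members and 0.0% of genes were called, with adjusted p-values of the members from 0.497 to 0.988. At an unadjusted p under 0.05, 5 members (Cxcl1, S100a8, S100a9, Ngp and Retnlg) were lower, where 4.15% of all genes were, and without knockdown-labelled library 3 there were 0, where 6.61% of all genes were in either direction. The median log2 fold change was -1.89 with Retnlg as fitted or at its bound, and -0.08 without that library. DESeq2 called 99 genes (0.573%).

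In this comparison 3 neutrophil genes changed sign when 1 library was left out. S100a8 had a log2 fold change of -4.91 (SE 1.92) with all libraries and 0.02 (SE 1.53) without knockdown-labelled library 3. S100a9 went from -4.17 (SE 1.56) to 0.75 (SE 1.00), and Ngp from -5.03 (SE 2.12) to 0.38. Retnlg, at 0 in all 4 knockdown-labelled libraries with berberine, was at least 7.37-fold lower there, from 1.75 CPM against the limit of 12 counts per library (0.237 CPM), but the mean without library 3 was 0.128 CPM, under that limit. DESeq2 called Retnlg (DESeq2 adjusted p 2.99e-05, up to 0.969 over the other alternatives). Its log2 fold change of -23.6 there rests on the group at 0 and is no bound. Cxcl1 kept its sign, with -2.18 (SE 0.68, adjusted p 0.497 by edgeR) and -1.08 (SE 0.56) without library 3. Tnf was at -1.59 (SE 0.95) and -1.20, Il1b at -1.22 (SE 0.85) and -0.20, and Csf3r at -0.62 (SE 0.47) and -0.18. Ccl2 and Cxcl2 were at 0.40 (SE 0.62) and 0.09 (SE 0.79), and changed sign to -0.04 and -0.18 without library 3 of the knockdown label with berberine.

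Under berberine, the members with the smallest p-values between the knockdown-labelled libraries and the berberine controls were chemokines. The log2 fold change was 1.37 (SE 0.63) for Ccl2 and 2.04 (SE 0.84) for Cxcl2. Cxcl2 held 0, 4, 11 and 6 counts in the berberine controls, all under the limit of 12 counts. It held 20, 7, 31 and 22 counts in the knockdown-labelled libraries with berberine, so the size of its fold change is uncertain. Ccl2 and Cxcl2 were the 2 members at an unadjusted p under 0.05, both higher, where 2.41% of all genes were. Neither passed the adjustment (adjusted p 0.996 for both by edgeR, 0 of 10 members and 0.0% of genes called). DESeq2 called 22 genes (0.127%), Retnlg among them (DESeq2 adjusted p 0.00737, up to 1 over the other alternatives). Retnlg held 4, 12, 0 and 0 counts in the berberine controls and 0 in all 4 knockdown-labelled libraries with berberine. None exceeds the limit of 12 counts, so the DESeq2 log2 fold change of -19.1 is no bound and no difference could be measured. S100a9 was at -0.88 (SE 1.41) and S100a8 at -1.27 (SE 1.70), and without berberine control library 2 they changed sign to 1.13 and 0.55. Cxcl1 was at 0.32 (SE 0.66), at 0.82 without berberine control library 2 and at -0.12 without library 3 of the knockdown label with berberine. Ccl2 ranged from 0.92 to 1.64 when single libraries were left out and Cxcl2 from 1.63 to 2.58.

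The difference between the berberine effects under the 2 vectors, the interaction, was below 0 in 9 of the 10 members. None was called by edgeR (0 of 10, 0.0% of genes, lowest adjusted p 0.773). DESeq2 called 17 genes (0.0984%), Retnlg among them (DESeq2 adjusted p 0.0356, up to 1 over the other alternatives). The DESeq2 value of Retnlg, -24.5, rests on a group at 0 and is no bound. At an unadjusted p under 0.05 there were 5 members, all below 0, where 3.96% of all genes were, and 0 without knockdown-labelled library 3, where 5.06% of all genes were in either direction. S100a9 had an interaction of -7.22 (SE 2.20), which was -2.30 without that library and -0.28 with berberine control library 2 left out as well. Cxcl1 had -2.46 (SE 0.94), then -1.36 and -0.86. Csf3r had -1.40 (SE 0.67), then -0.96 and -0.84. A comparison of the label and a comparison of berberine share a group of libraries, and the interaction uses all of them. Their values for a member are therefore not independent of each other. A high knockdown-labelled library 3 raises the difference of the label without berberine and lowers that of berberine within the label.

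Groups of 4 overlapped for all 10 members in each of the 4 comparisons between groups, while 5.12% of all tested genes did not overlap in the comparison of the label without berberine. The shares were 3.11% for berberine in the negative controls, 4.79% for berberine within the label and 5.08% for the label under berberine.

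Further markers of granulocytes were read to see how far knockdown-labelled library 3 differed from the rest. Camp, the cathelicidin of secondary granules, was at 29.1 FPKM there, at 0.600 FPKM in berberine control library 2 and at 0 to 0.401 FPKM in the other 14 libraries. Mpo and Elane, the myeloperoxidase and elastase of primary granules, were at 6.08 and 8.90 FPKM there, against at most 0.0579 and 1.98 FPKM in the other 14. Prtn3, a further primary-granule protease, was at 22.1 FPKM, against 8.56 FPKM in berberine control library 2 and at most 2.63 FPKM elsewhere. Markers of both mature and immature granulocytes thus peaked in the same library. Of 16 mature neutrophil genes, Wfdc21 and Hdc were left out after their liver levels were seen, and neither was highest there. Wfdc21 was at 621 FPKM there and at 733 FPKM in berberine control library 2. Hdc was at 1.52 FPKM there and at up to 5.95 FPKM in the other 14 libraries. Of the remaining 14 genes (4 of them members), 13 were highest there. Their summed level was 286 FPKM, against 20.4 FPKM in berberine control library 2 and 0.701 to 8.26 FPKM in the other 14 libraries. All 9 immature granulocyte genes other than Lcn2, Ngp among them, were highest there, with 92.1, 12.3 and 0.859 to 3.42 FPKM. Over the whole lists, the sums of the 16 mature neutrophil genes were 276 to 473 FPKM in the negative controls and 73.7 to 909 FPKM in the knockdown-labelled libraries, most of it Wfdc21. With berberine they were 325 to 756 and 221 to 483 FPKM. The 10 immature granulocyte genes summed to 1.85 to 3.56 and 3.52 to 405 FPKM, and with berberine to 3.74 to 165 and 4.41 to 12.2 FPKM, most of it Lcn2. The part of granulocyte content in the other members' differences was not tested.

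The proportions of neutrophil transcripts were compared between the 2 libraries that held the most of them. Ngp stood to S100a9 as 0.110 in knockdown-labelled library 3 and as 0.107 in berberine control library 2, and S100a8 to S100a9 as 0.723 and 0.550. Csf3r stood to S100a9 as 0.0180 and 0.0657, so this ratio was less alike than those of Ngp and S100a8. Retnlg stood to S100a9 as 0.0643 and 0.0257, but its value in berberine control library 2 rests on 12 counts, the limit used here. Ly6g, a surface protein used to sort mouse neutrophils, and the chemokine receptor Cxcr2, named here after their values were seen, were at 0.475 and 0.548 FPKM in knockdown-labelled library 3 and at 0.0652 and 0.141 FPKM in berberine control library 2. In the other 14 libraries Ly6g was at 0 and Cxcr2 at up to 0.162 FPKM. The Ly6g value in berberine control library 2 rests on 4 counts, under the limit of 12.

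**Figure D4:**
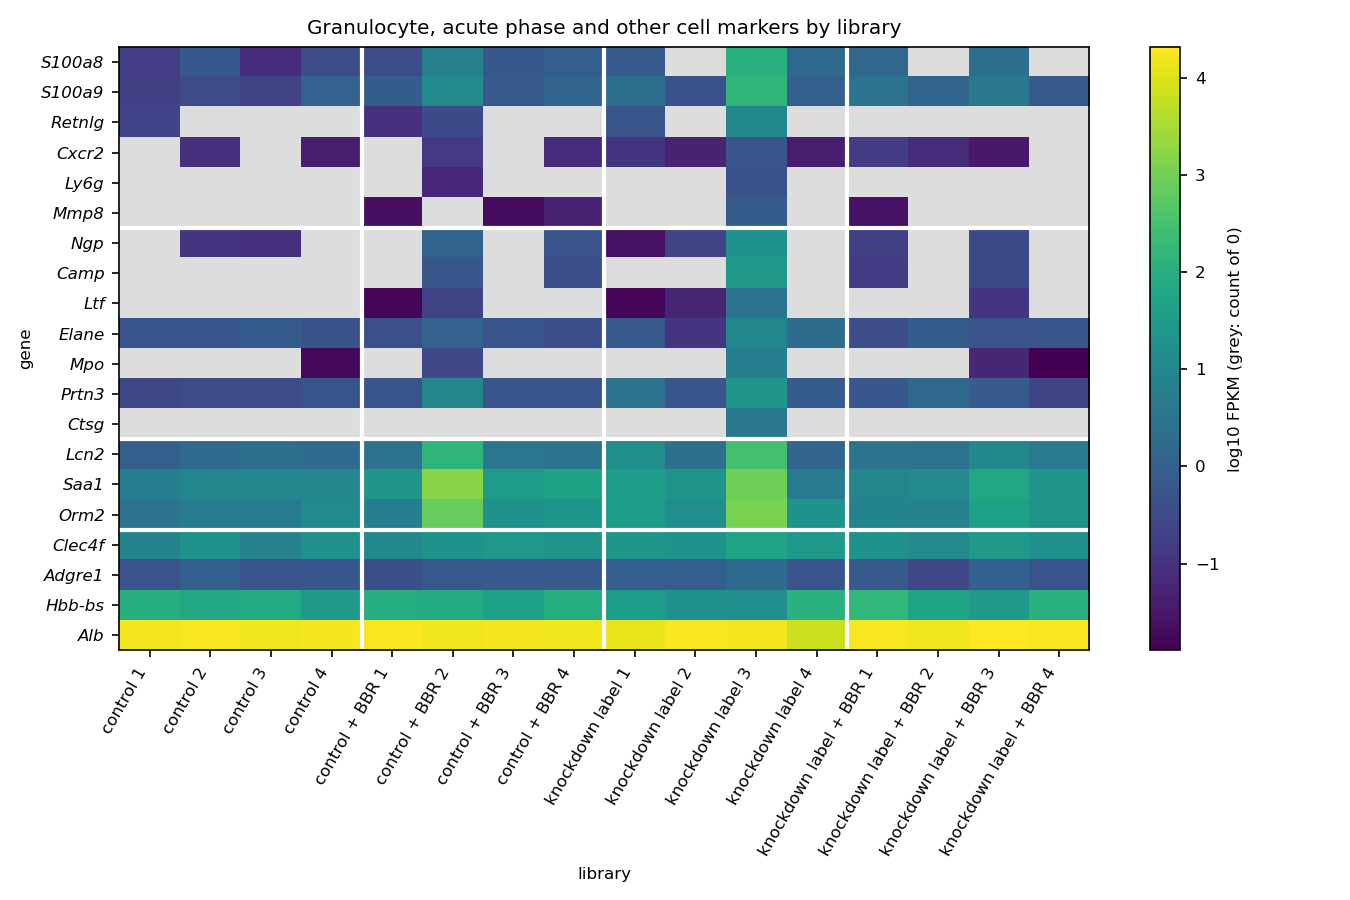
Level of 20 marker genes (rows) in each of the 16 libraries (columns), as log10 FPKM in colour, with grey for a count of 0. White lines part the 4 groups and, from the top, mature neutrophil, immature granulocyte, acute phase and other cell markers. Knockdown-labelled library 3 has a value in every granulocyte row, with Camp at 29.1 and Mpo at 6.08 FPKM, and berberine control library 2 shares its high acute phase rows, with Saa1 at 867 and 1691 FPKM.

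Red blood cell transcripts, a sign of blood left in the tissue, were read beside the neutrophil genes. Hbb-bs, an adult beta globin, was at 14.6 FPKM in knockdown-labelled library 3, the lowest of the 16 libraries, at 84.8 FPKM in berberine control library 2 and at 18.3 to 168 FPKM in the other 14. The sum of 8 erythroid and platelet genes was 146 FPKM in knockdown-labelled library 3, 498 FPKM in berberine control library 2 and 117 to 1087 FPKM in the other 14. The part of blood in the neutrophil values was not tested.

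The acute phase genes, which hepatocytes switch on in inflammation, were high in the same 2 libraries. Saa1, a serum amyloid A, was at 867 FPKM in knockdown-labelled library 3 and 1691 FPKM in berberine control library 2, against at most 62.8 FPKM in the other 14. Orm2, an orosomucoid, was at 1199 and 750 FPKM, against at most 43.5 FPKM. Lcn2, an iron-carrier protein made by both hepatocytes and neutrophils, was at 313 and 152 FPKM, against at most 15.4 FPKM. Berberine control library 2 thus had more Saa1 than knockdown-labelled library 3 but 12.9-fold less S100a9. Of 10 acute phase genes tested, 8 were higher at an unadjusted p under 0.05 in the knockdown-labelled group without berberine (0 called). Of all tested genes, 7.33% were higher at that level. The median log2 fold change of the 10 was 1.77. Without knockdown-labelled library 3 there were 0 at that level, with a median of 0.92, where 9.31% of all genes were in either direction. The part of the acute phase state in the members' differences was not tested.

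Kupffer cell and macrophage genes were higher beside the neutrophil genes. All 11 were higher in the knockdown-labelled group without berberine, 9 at an unadjusted p under 0.05, where 7.33% of all genes were higher. Their median log2 fold change was 1.09, with 0 called. Without knockdown-labelled library 3 the median was 0.65, with 3 at that level, where 9.31% of all genes were in either direction. The summed level of the 11 ran from 53.0 to 127 FPKM in the negative controls and from 92.0 to 299 FPKM in the knockdown-labelled libraries. Clec4f, a Kupffer cell lectin, was at 54.5 FPKM in knockdown-labelled library 3 and at 7.41 to 29.6 FPKM in the other 14 libraries besides berberine control library 2. The 7 monocyte genes were all higher as well, 3 at an unadjusted p under 0.05, with a median of 0.95, or 0.40 with 1 at that level without library 3. With all libraries, lymphocyte lists lay nearer to the median of all genes, with 0 of 6 B and plasma cell genes and 0 of 6 T and NK cell genes at an unadjusted p under 0.05 and medians of 0.42 and 0.25. Without library 3 these medians were 0.41 and 0.12, so the B and plasma cell list no longer lay nearer than the monocyte list. Within the knockdown label, all 11 Kupffer cell and macrophage genes were lower with berberine, 1 at an unadjusted p under 0.05. Of all tested genes, 4.15% were lower at that level. The median log2 fold change of the 11 was -0.57, or -0.26 with 9 lower without library 3. Whether the mix of cells plays a part in the members' differences was not tested.

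The other genes of the pathway gave a mixed account. Of 16 further chemokines tested, 13 were higher in the knockdown-labelled group without berberine, 1 at an unadjusted p under 0.05. Of all tested genes, 7.33% were higher at that level. The median log2 fold change of these chemokines was 0.85, or 0.54 without knockdown-labelled library 3. In the negative controls, 13 of them were also higher with berberine, 2 at that level, where 3.94% of all genes were in either direction. Under berberine the lymphocyte attractants Cxcl9, Cxcl10 and Ccl5 peaked in knockdown-labelled library 3 with berberine, at 23.6, 6.30 and 10.6 FPKM, the library in which Ccl2 was also highest. That library also held the highest Zfp36, an mRNA-decay factor of the NF-kB response, at 147 FPKM. Of 17 NF-kB factors and feedback targets, 15 were higher in the knockdown-labelled group without berberine and 6 at an unadjusted p under 0.05, with a median of 0.47, or 5 at that level and 0.35 without library 3. On a list for the processing of Il1b and Tnf, which also held the cytokines Il18 and Il1a, 9 of 9 genes were higher. Of these, 3 were at that level, with a median of 0.80. Without knockdown-labelled library 3, 7 of the 9 were higher and 2 at that level, with a median of 0.61. Gsdmd, the pore protein through which Il1b leaves cells, was at 20.2 FPKM in knockdown-labelled library 3 and at 7.51 to 13.1 FPKM in the others. Of 11 receptors and ligands of the members, 9 were higher and 1 at that level, with a median of 0.19. None of these genes was called.

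Endothelial adhesion genes, which let neutrophils stop in the vessel, were low. Icam1 was at 6.17 FPKM in knockdown-labelled library 3, at 3.76 FPKM in berberine control library 2 and at up to 4.04 FPKM in the other 14. The other adhesion genes did not peak in knockdown-labelled library 3. Vcam1 and Icam2 were at 1.34 and 0.893 FPKM there, against up to 1.38 and 1.57 FPKM in the other 14. Selp was at 0.0693 FPKM, the lowest of the 16, against 0.111 to 0.961 FPKM in the other 14. Sele, endothelial selectin, was listed at 0 in 15 of the 16 libraries. Of 4 such genes tested, 4 were higher in the knockdown-labelled group without berberine and 1 at an unadjusted p under 0.05. Their median log2 fold change was 0.66. Of all tested genes, 7.33% were higher at that level.

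The genes most like S100a8 across the 16 libraries, by Spearman's rho of FPKM and as a description, were Gm6285 (0.92), Micall2 (0.87), Was (0.86), Igf2bp2 (0.85) and Cd37 (0.83). Those most like Cxcl1 were Hnrnpll (0.81), Ldlrad4 (0.80), Mrtfa (0.79), Rpl36a-ps2 (0.77) and C9orf72 (0.76). The 2 sets have no gene in common. Among the members, Csf3r and S100a9 had a rho of 0.77, S100a8 and S100a9 of 0.73, Ccl2 and Csf3r of 0.73, and Cxcl1 and Cxcl2 of 0.51, over libraries that share their depth and their mix of cells.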

How the data were processed

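Poly(A) RNA of 16 mouse livers was sequenced as paired reads of 150 bases, per the labels' protocols. Per the submitters' processing notes, the build was mm10 and the tools were HISAT2 2.0.4, StringTie 1.3.4d, cutadapt 1.9, DESeq2 and edgeR, with roles not given in the sources used here. The deposited table holds whole-number counts per gene and library and FPKM values, scaled by length and depth by the authors, with 0.0001 for a count of 0, set to 0 here. Small counts fall on 4 more often than on 5 (760 to 1283 genes against 144 to 208), so a count need not be 1 fragment and low values are less precise than their counts. Replicates are the 4 numbered mice of each group, and 0 pairs of libraries were identical.

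The 10 members, gene lists and tests were chosen with earlier results of these data known. The members, up to 6 genes of each list by mean FPKM, and the 5 genes most like S100a8 and Cxcl1 are named. The main test was the quasi-likelihood test of edgeR 4.0.16 (R 4.3.3, TMM scaling, a mean count of at least 10, 4 group means fitted to all 16 libraries, two-sided, Benjamini-Hochberg adjustment over 17376 genes, threshold 0.05), and a standard error is the log2 fold change divided by the square root of its F statistic. Alternatives were DESeq2 1.42.0, its size factors, limma 3.58.1 on log2(FPKM + 1) and log2(FPKM + 0.1), other filters, a robust spread, only the groups compared, no mitochondrial genes, the replicate number as a block, CPM in place of FPKM, and libraries left out. The edgeR step was first tested on simulated counts with the same spread for every gene and no outlying library. That test does not cover members with low counts or with a value far above the rest in a single library. Python 3.11.15 was used for the rest. No per-sample column was left out.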

Additional observations from a re-analysis of the deposited data

Results flagged for a closer look

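Of the 40 sets formed by 10 members and 4 groups of 4 libraries, 9 had 1 library so far from the other 3 that its gap exceeded Dixon's critical value. Chance flags about 1 set in 20 where values are independent and normally distributed, which these are not: levels are skewed and members move together, so that rate need not hold for them. Knockdown-labelled library 3 stood apart within its group in 5 of them: S100a9 (155 FPKM), S100a8 (112 FPKM), Ngp (17.1 FPKM), Retnlg (9.98 FPKM) and Cxcl2 (0.317 FPKM). Berberine control library 2 stood apart in S100a9 (12.0 FPKM) and S100a8 (6.61 FPKM). Among the untreated negative controls, library 4 stood apart in S100a9 (1.17 FPKM) and library 1 in Retnlg (0.229 FPKM, on 10 counts, with the other 3 libraries at 0, so that the gap fills the whole range). No member's interaction passed the adjustment by edgeR, the lowest adjusted p being 0.773.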

How the results depend on the processing

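Under the alternatives, 1313 values of single members kept their direction and side of the threshold, 31 uncalled ones changed sign, 6 newly passed the threshold and 0 called values reversed. The 15 DESeq2 values of S100a8, S100a9 and Ngp, which came without a p-value, are not counted. The main fit called 0 genes in each of the 5 comparisons. DESeq2 called 99 genes for the label without berberine, 3 for berberine in the negative controls, 99 for berberine within the label, 22 for the label under berberine and 17 for the interaction. With each library left out in turn the counts ran from 0 to 233, 0 to 1, 0 to 26, 0 to 1 and 0 to 1, and the 233 and the 26 came without knockdown-labelled library 2. With knockdown-labelled libraries 3 and 4 both left out, 2 genes were called for the label without berberine, 2 for berberine within the label and 2 for the interaction. Fitting only the groups compared gave 1 call for berberine in the negative controls. With knockdown-labelled library 3 and berberine control library 2 both left out, an alternative chosen after their neutrophil transcripts were seen, 1 gene was called for berberine in the negative controls, 1 for berberine within the label, 1 for the label under berberine and 2 for the interaction. The cause was not tested.

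The 24 pairs of same-numbered libraries had correlations of their deviations from the group means from -0.129 to 0.137, 2 of them over 0.1. Low values of this kind cannot show that the mice were unpaired. The labels state no pairing, so the main fit did not use the numbers as pairs. With the replicate number as a block, 0 genes were called in each comparison, with 2092 genes at an unadjusted p under 0.05 for the label without berberine against 2120 in the main fit, and Cxcl1 had a log2 fold change of 2.34 (edgeR adjusted p 0.344). Of 8 libraries in each comparison, 2, 0, 5 and 0 correlated best with their own number, the 5 being for berberine within the label. Depth limits 8 of the 10 members: all but Cxcl1 and Csf3r had under 40 counts in 9 to 15 of the 16 libraries.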
